A study of Mus musculus with 11 samples.

Results

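The Mcm helicase family was examined in mouse forelimb buds of stage E10.5 in which Gmnn was deleted in limb mesenchyme. The family was taken as 10 genes of the 47517 in the deposited table, chosen by name: the helicase subunits Mcm2, Mcm3, Mcm4, Mcm5, Mcm6 and Mcm7, and Mcm8, Mcm9, Mcm10 and the Mcm binding protein gene Mcmbp. All 10 had enough reads to be tested. Total RNA depleted of ribosomal RNA was sequenced, from embryos of C57BL/6 background. The 6 mutant libraries came from Gmnn f/f; Prx-Cre embryos, with both Gmnn alleles floxed. The 5 control libraries came from Gmnn +/f; Prx-Cre embryos, with 1 floxed and 1 wild-type allele. Both groups therefore carry the Cre transgene, and recombination of the floxed allele leaves control mesenchyme heterozygous for Gmnn. Prx-Cre drives recombination in limb mesenchyme, so the ectoderm, vessels and blood in the same buds keep their alleles. By their titles the embryos belong to 4 litters, A to D. Controls 1 and 2 and mutants 1 and 2 were littermates (A), as were control 3 and mutant 6 (B), control 4 and mutant 5 (C), and control 5 and mutants 3 and 4 (D).

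Mcm2 to Mcm7 form a ring of related ATPases that is loaded onto DNA at replication origins before S phase and unwinds DNA ahead of the replication fork. Loading needs the origin recognition complex, Cdc6 and Cdt1. Geminin, the product of Gmnn, binds Cdt1 and blocks loading outside the proper window of the cell cycle. Mcm8 and Mcm9 form a separate helicase used in homologous recombination, Mcm10 takes part in activating the loaded helicase, and Mcmbp is a chaperone of newly made and released Mcm subunits. In proliferating embryonic tissue the Mcm genes are transcribed as part of the cell cycle programme.

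The targeted gene, Gmnn, was measured first as a check of the labels. Its level in CPM (the read count scaled to the depth of its library) was 180 ± 40.2 (SD, n = 5) in controls and 115 ± 16.1 (SD, n = 6) in mutants, and the groups did not overlap. Libraries held between 14721181 and 19733288 counts. Of the 5 limb mesenchyme markers none passed the test. Their summed level was 403 to 557 CPM in controls and 448 to 517 CPM in mutants. At an unadjusted edgeR p under 0.05 there were 4, with 3 values above 0 and 1 below, against 21.4% of all genes tested. The log2 fold changes of the 5 markers ran from -0.28 to 0.27, with a median of 0.24. Opposite changes can cancel in the sum, so it does not show that each marker was unchanged. Haemoglobin transcripts took 1.34% to 3.30% of control counts and 1.69% to 5.44% of mutant counts, highest in mutant 2. The 4 contractile muscle markers summed to 28.6, 51.1, 4.20, 3.60 and 68.4 CPM in controls 1 to 5 and to 3.35 to 6.36 CPM in mutants. Of the 4, 3 were called lower, against 1.48% of all genes tested. The 7 macrophage markers summed to 4.41 to 33.5 CPM in controls and 12.4 to 48.8 CPM in mutants; 6 of 7 had values above 0 (median 0.73) and none was called. In bulk tissue, fewer cells of a type and less RNA per cell cannot be told apart. Nothing in the labels says how RNA was pooled within an embryo. The p-values for genotype set each difference against the variation between these libraries that is left after litter and genotype.

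Mcmbp was lower in mutants, and none of the other 9 members passed the test. Its fitted level in mutants was 0.611 of that in controls (95% interval 0.482 to 0.774), and the difference was negative in each of the 4 litters. The 6 helicase subunits differed between genotypes by -0.19 to 0.04 on the log2 scale, all without passing the threshold. A gene was called where its p, from edgeR's quasi-likelihood test with Benjamini-Hochberg adjustment over all genes, was under 0.05. Thus 1 of 10 members was called, against 2.18% of the 15821 genes tested. It was lower, as were 1.48% of all genes tested, and 0 members were called higher, against 0.702%. At an unadjusted p under 0.05 there were 2 members, Mcm4 and Mcmbp, against 21.4% of all genes. Control and mutant libraries overlapped for each of the 10 members, while 2.59% of all genes had no overlap. The median log2 fold change of the members was -0.06, with 3 positive and 7 negative, and that of all genes tested was 0.00. The median size of the difference, regardless of sign, was 0.07 for the members and 0.18 for all genes tested.

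**Figure D1:**
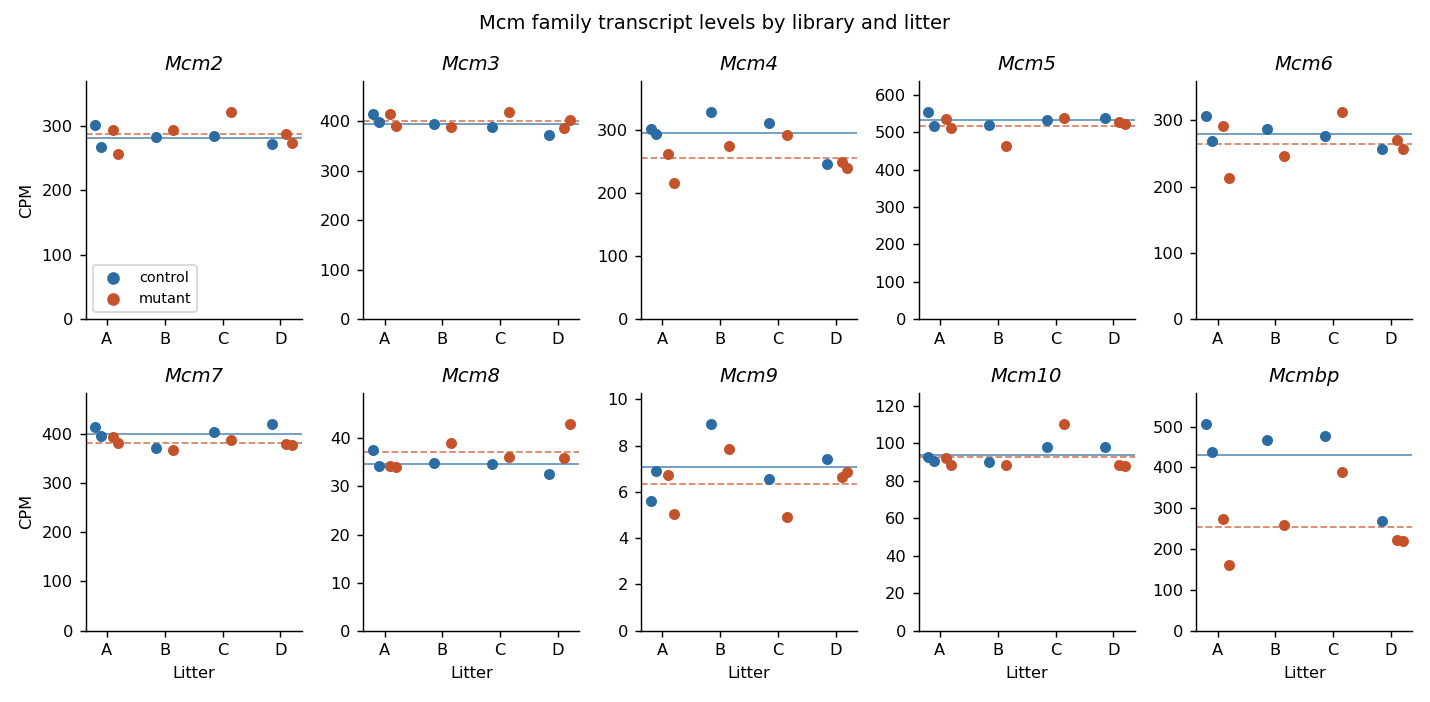
Level of each family member (CPM, axes from 0) in each library, by litter; blue points are the 5 controls and orange points the 6 mutants, with solid and dashed lines for the group means. Mcmbp spans the widest range, from 162 to 507 CPM, and control 5 lies among the mutants for it.

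Among the helicase subunits, Mcm5 had the most reads and the smallest differences came from Mcm3 and Mcm2. Mcm5 stood at 554, 518, 520, 532 and 538 CPM in controls 1 to 5, and at 462, 524 and 539 CPM as the lowest, median and highest of the mutants. The lowest mutant value, in mutant 6, lay below every control, and the other 5 mutants lay within or near the control range. The fitted difference was -0.05 (SE 0.06, adjusted p 0.678). Mcm3 was 394 ± 15.4 CPM (SD, n = 5) across controls against 399.9 ± 13.9 CPM (SD, n = 6) across mutants, a difference of 0.03 (SE 0.06, adjusted p 0.803). Mcm2 was 282 ± 13.2 CPM (SD, n = 5) and 288 ± 22.1 CPM (SD, n = 6), a difference of 0.04 (SE 0.07, adjusted p 0.799). The 95% intervals allow at most a 1.14-fold rise of Mcm2, from 0.927 at the low end, and 0.937 to 1.11 for Mcm3.

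Mcm4, Mcm6 and Mcm7 had fitted values below 0. Mcm4 was 301, 293, 328, 310 and 245 CPM in controls 1 to 5, and 215, 254 and 292 CPM as the lowest, median and highest of the mutants. Control 5 lay among the mutants, and the 4 other controls were above all 6 mutants. The fitted Mcm4 difference was -0.19 (SE 0.07, 95% interval -0.35 to -0.03), a ratio of 0.878. Its unadjusted p was 0.0261 and its adjusted p was 0.177, so it was not called, although the value was below 0 in 4 of 4 litters. Mcm7 was 399.9 ± 19.3 CPM (SD, n = 5) across controls against 381 ± 8.77 CPM (SD, n = 6) across mutants. Its difference of -0.07 (SE 0.06) had an adjusted p of 0.483, and all 4 litters were below 0. Mcm6 was 279 ± 18.9 CPM (SD, n = 5) and 265 ± 34.9 CPM (SD, n = 6), with a difference of -0.07 (SE 0.09, adjusted p 0.714) and opposite signs in litters A and B against C and D. Mutant 2 was the lowest of all 11 libraries for Mcm2, Mcm4, Mcm6 and Mcmbp. That library also had the highest share of haemoglobin counts, 5.44%. Without mutant 2 the difference was -0.13 for Mcm4 and 0.00 for Mcm6, both still uncalled. With haemoglobin, mitochondrial and ribosomal RNA genes removed from all libraries, Mcm4 was -0.19 and Mcm6 -0.08. That removal acts on other genes through the scaling alone and leaves other red cell RNA in place. The effect of blood content on Mcm levels was therefore not tested.

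Within litters, the differences of the subunits were as follows, and none of the 6 passed the test of genotype by litter, with unadjusted p from 0.416 (Mcm4) to 0.899 (Mcm7). The log2 difference of Mcm4, mutant minus control, was -0.33 in litter A and -0.25 in litter B, and -0.09 and -0.01 in litters C and D. Mcm6 was -0.20 and -0.22 in A and B and 0.17 and 0.04 in C and D. Mcm2, which was -0.05, 0.06, 0.18 and 0.05 in litters A to D, and Mcm3, which was -0.02, -0.02, 0.11 and 0.08, had their highest value in litter C. Mcm5 was -0.03, -0.17, 0.02 and -0.04, and Mcm7 was -0.06, -0.01, -0.06 and -0.15. Litter C rests on 1 control and 1 mutant, and its mutant 5 was the highest of the 11 libraries for Mcm2, Mcm3, Mcm6 and Mcm10.

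The subunit pairs did not all move together from library to library. For Mcm6, levels were 307, 268, 287, 277 and 257 CPM in controls 1 to 5, with mutants from 213 to 313 CPM around a median of 264 CPM. Mcm7 stood at 413, 394, 370.2, 402 and 420.0 CPM in controls 1 to 5, with mutants from 367 to 393 CPM and a median of 380.5 CPM. Control 5 was thus the highest library for Mcm7 and the lowest control for Mcm6, Mcm4 and Mcm3. Pearson's r of log2 CPM over the 11 libraries was 0.79 for Mcm2 with Mcm6, 0.72 for Mcm4 with Mcm6 and 0.69 for Mcm5 with Mcm7, but -0.01 for Mcm2 with Mcm7 and 0.06 for Mcm4 with Mcm7. After centring on litter and genotype the r of Mcm6 was 0.90 with Mcm2, 0.90 with Mcm4 and 0.86 with Mcm3, and 0.14 with Mcm7. Centring makes the single pairs of litters B and C equal and opposite, so centred r values rest on fewer independent values than 11. Centring turned the order of the pairs with Mcm7: it was 0.09 for Mcm5, 0.44 for Mcm2 and -0.19 for Mcm4.

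Summed over the 6 subunits, the helicase transcripts came to 2182 ± 70.4 CPM (SD, n = 5) across controls against 2104 ± 109 CPM (SD, n = 6) across mutants. The groups overlapped, with controls from 2103 to 2290 CPM and mutants from 1969 to 2269 CPM. Counting for Mcm7 is not fully separate from its neighbours: 557 of its 4426 exon bases (12.6%) are shared with Ap4m1, Cops6, Mir25 and Mir93, and a read over exons of several genes is left out under the counter's default. The microRNA genes Mir25, Mir93 and Mir106b, which lie within Mcm7, had 0 reads in all 11 libraries. Mir25 and Mir93 lie wholly inside Mcm7 exons, so under that default no read could be assigned to them. Their 0 is therefore no measurement. Mir106b has 0 bases in Mcm7 exons and could have been assigned reads. No other member shares exon bases with another gene. Coordinates in the counts table are on mm10: Mcm2 at chr6:88883474-88898780, Mcm3 at chr1:20802968-20820312, Mcm4 at chr16:15623897-15637400, Mcm5 at chr8:75109528-75128439, Mcm6 at chr1:128331590-128359664 and Mcm7 at chr5:138164583-138172422. Of these, Mcm5 alone lies on the plus strand.

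**Figure D2:**
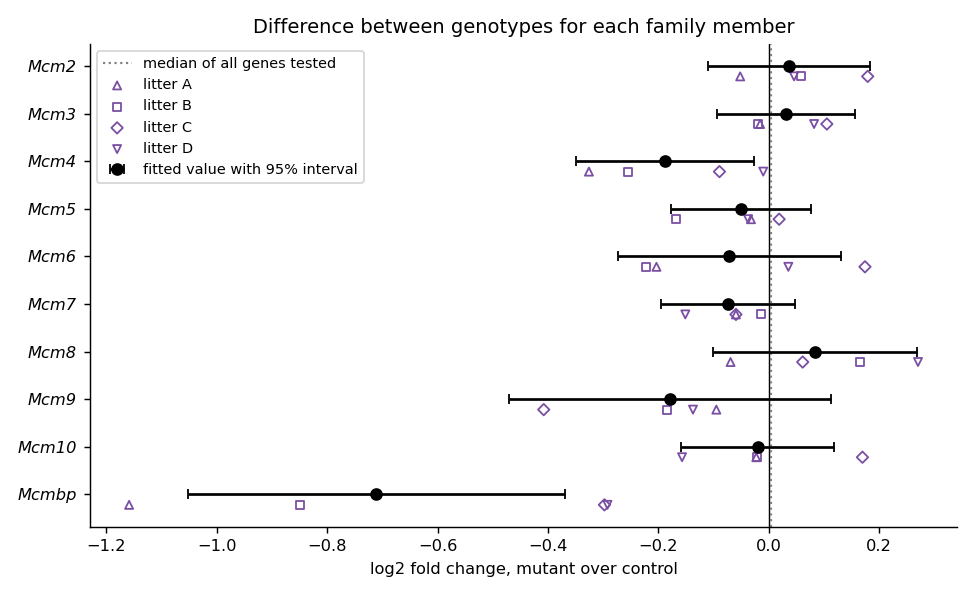
Log2 fold change of mutant over control for each member: black points are fitted values with 95% intervals, open purple symbols the 4 litters, and the dotted line the median of all genes tested. Mcmbp is at -0.71 and the other 9 members lie between -0.19 and 0.08.

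The promoters of 3 subunits and of Mcmbp are printed to set the letters that these members share, and those that Mcmbp lacks, beside their levels. Windows of 300 bases, from 250 before to 50 after the start, were taken from RefSeq (GRCm38.p6) for 9 of the 10 members. The letters TTTCCCGC, TTTCGCGC, TTTGCCGC and TTTGGCGC, types of site bound by E2F factors, and CCAAT, the core of the site bound by NF-Y, were searched on both strands. The E2F-type letters were found in windows of 6 of these 9 members (Mcm3, Mcm5, Mcm6, Mcm7, Mcm8 and Mcmbp), against 2.60% of 27025 genes with a window. CCAAT was found in 8 of 9, all but Mcmbp, against 41.1% of those genes. A match describes the letters only. In the upstream stretches that follow, 5′ to 3′ along the gene, capitals mark matches of either kind; in Mcm5 and Mcm6 a run of 12 capitals is a pair of overlapping E2F-type matches on opposite strands. Positions are on GRCm38, the assembly called mm10 in the counts table, where Mcm7 and Mcmbp also have an annotated start farther upstream than the RefSeq start used here.
Mcm5, chr8:75109259-75109508, plus strand: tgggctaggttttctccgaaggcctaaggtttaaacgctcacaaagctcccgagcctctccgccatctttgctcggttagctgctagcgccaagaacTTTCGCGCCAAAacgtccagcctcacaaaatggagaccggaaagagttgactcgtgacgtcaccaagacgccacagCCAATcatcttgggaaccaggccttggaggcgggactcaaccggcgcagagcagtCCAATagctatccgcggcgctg
Mcm6, chr1:128359706-128359955, minus strand: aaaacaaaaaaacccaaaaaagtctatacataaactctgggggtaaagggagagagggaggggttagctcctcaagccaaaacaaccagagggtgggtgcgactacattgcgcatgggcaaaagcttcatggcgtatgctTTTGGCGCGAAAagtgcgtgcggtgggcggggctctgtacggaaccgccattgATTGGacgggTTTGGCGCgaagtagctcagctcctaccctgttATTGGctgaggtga
Mcm7, chr5:138171884-138172133, minus strand: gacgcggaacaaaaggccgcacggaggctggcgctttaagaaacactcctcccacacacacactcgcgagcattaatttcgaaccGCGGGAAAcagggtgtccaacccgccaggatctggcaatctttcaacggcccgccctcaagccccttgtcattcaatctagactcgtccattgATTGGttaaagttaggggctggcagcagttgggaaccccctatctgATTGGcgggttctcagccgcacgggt
Mcmbp, chr7:128740430-128740679, minus strand: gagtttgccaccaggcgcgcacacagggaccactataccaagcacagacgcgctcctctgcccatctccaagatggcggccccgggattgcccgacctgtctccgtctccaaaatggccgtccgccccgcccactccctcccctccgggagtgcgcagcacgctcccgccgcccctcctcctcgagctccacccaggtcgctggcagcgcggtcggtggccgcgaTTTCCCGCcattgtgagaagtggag

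Mcm6 carries the most E2F-type matches before the start, at 110, 106 and 47 bases upstream, and Mcmbp a single match 25 bases upstream with no CCAAT. Mcm5 has its overlapping pair 153 and 149 bases upstream, and Mcm7 a match 165 bases upstream. Matches after the start, at 20 and 39 bases in Mcm3, 17 in Mcm7 and 40 in Mcm8, are shown for 1 site a gene in stretches of 30 bases, with the E2F-type letters in capitals. Mcm2, Mcm9 and Mcm10 had CCAAT but none of the 4 E2F-type sequences in their windows.
Mcm3 at 39 bases after the start, chr1:20820263-20820292, minus strand: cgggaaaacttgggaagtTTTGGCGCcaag
Mcm7 at 17 bases after the start, chr5:138171849-138171878, minus strand: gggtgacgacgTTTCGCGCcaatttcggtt
Mcm8 at 40 bases after the start, chr2:132816161-132816190, plus strand: gcagaagcgcgtcatagacGCGCCAAAaaa

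Mcm8 and Mcm9, the genes of the recombination helicase, did not pass the test. Mcm8 was 34.8 ± 1.80 CPM (SD, n = 5) across controls against 37.1 ± 3.41 CPM (SD, n = 6) across mutants. The difference of 0.08 (SE 0.09) had an adjusted p of 0.616. Mcm9 had the fewest reads of the members, at 7.09 ± 1.24 CPM (SD, n = 5) across controls against 6.33 ± 1.14 CPM (SD, n = 6) across mutants, from 72 to 164 reads per library. Its 95% interval, -0.47 to 0.11 around -0.18, is the widest of the members apart from Mcmbp, and its adjusted p was 0.478. Mcm10, the helicase activation factor, was 93.9 ± 4.07 CPM (SD, n = 5) and 92.6 ± 8.85 CPM (SD, n = 6), a difference of -0.02 (SE 0.06, adjusted p 0.896). Mcm8 lies at chr2:132816141-132844197 on the plus strand, Mcm9 at chr10:53536329-53630439 and Mcm10 at chr2:4989714-5012791, both on the minus strand. Mutant 5 was the highest library for Mcm10, at 110 CPM, where the other 5 mutants were 87.9 to 91.9 CPM.

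Mcmbp lies at chr7:128696441-128740495 on the minus strand, with 5107 bases of merged exon. Its level was 507, 437, 467, 476 and 270 CPM in controls 1 to 5, and 162, 240 and 388 CPM as the lowest, median and highest of the mutants. Controls 1 to 4 were above every mutant. Control 5 lay at the level of the mutants, and mutant 5, the highest mutant, stood apart from the other 5, which reached at most 274 CPM. Averages were 431 ± 93.6 CPM (SD, n = 5) across controls against 254 ± 76.2 CPM (SD, n = 6) across mutants. The fitted difference was -0.71 (SE 0.16, 95% interval -1.05 to -0.37), with an adjusted p of 0.0464, close to the threshold, and the 224th smallest p of all genes. By litter it was -1.16 in A, -0.85 in B, -0.30 in C and -0.29 in D. The interaction of genotype with litter had an unadjusted p of 0.103 for Mcmbp and an adjusted p of 0.95, on 3 residual degrees of freedom.

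Set against the helicase subunits, there were 20.4 to 22.1 Mcmbp reads for every 100 reads of Mcm2 to Mcm7 in controls 1 to 4, and 12.8 in control 5. Mutants had 8.21 to 12.7, apart from mutant 5 at 17.1. The coefficient of variation over the 11 libraries was 36.6% for Mcmbp and 12.6% for Mcm4, and it was lowest for Mcm3 (3.60%) and Mcm7 (4.36%). Pearson's r of log2 CPM over the 11 libraries was 0.95 between Mcmbp and Mcm4, the highest among the 45 pairs of members. That of Mcmbp with Mcm6 was 0.75, and with Mcm2, Mcm3, Mcm5 and Mcm7 it was 0.34 to 0.44. After centring on litter and genotype, the r of Mcmbp was 0.98 with Mcm4, 0.92 with Mcm6, 0.90 with Mcm3, 0.82 with Mcm2 and 0.47 with Mcm5, and -0.08 with Mcm7. These libraries share genotype, litter and preparation, and the correlations are given as a description. The centred values rest on fewer independent values than the 11 libraries.

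The call for Mcmbp depended on the libraries included. Leaving out each library in turn gave -0.84 to -0.56, negative in 11 of 11 fits, but the adjusted p was under 0.05 in only 2 of them: 0.0255 without control 5 and 0.022 without mutant 2. Without control 1 it was 0.0871, without control 2 0.0906, without control 3 0.18 and without control 4 0.056. Without mutants 1, 3, 4, 5 and 6 it was 0.0944, 0.0641, 0.0735, 0.0563 and 0.183. Litters B and C are single pairs, so leaving out either library takes the whole litter out of the genotype difference. Control 5 is the only control of litter D, so leaving it out takes litter D out of the difference too. The value was thus -0.68 without control 3, mutant 6 or litter B. It was -0.81 without control 4, mutant 5 or litter C. For litter D it was -0.84 without control 5, which kept the call, and -0.85 without the litter, which lost it. These fits repeat each other, or nearly so for litter D, and are not separate evidence. Leaving out a litter also ended the call. Without litter A the value was -0.46 (adjusted p 0.122). Without litters B, C and D it was -0.68, -0.81 and -0.85, with adjusted p of 0.179, 0.0568 and 0.0523. Without the litter block the value was -0.76 and the adjusted p 0.0625. With control 5 and mutant 5 both left out, an alternative added after seeing the data, it was -1.03 (SE 0.17, adjusted p 0.0129). That fit takes its genotype difference from litters A and B alone, since litter D then has no control and litter C no mutant. Litters A and B had the larger differences, -1.16 and -0.85, against -0.30 in C and -0.29 in D.

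**Figure D3:**
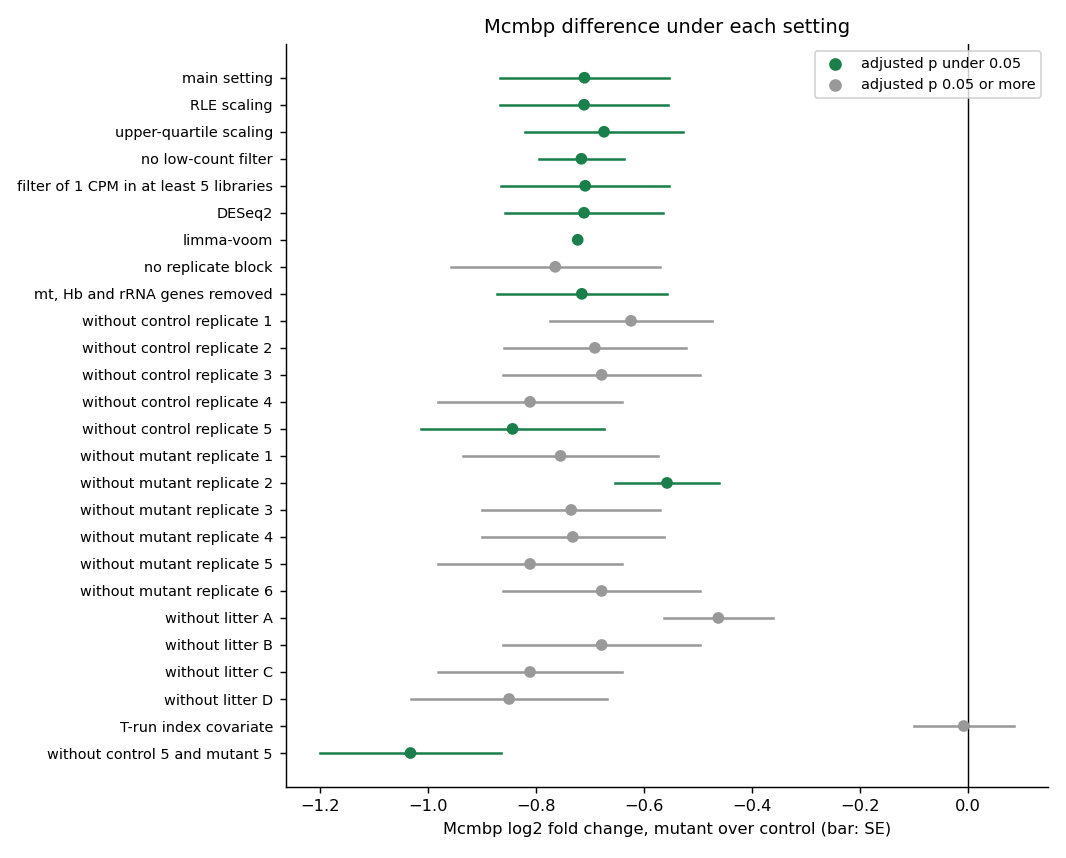
Mcmbp log2 fold change (mutant over control) under the main setting and 25 alternatives; bars are standard errors (none for limma-voom), green marks an adjusted p under 0.05. All values are below 0, from -1.03 to -0.01, and 10 of the 25 alternatives keep the call. The alternatives are not all separate: those without control 3, mutant 6 or litter B share 1 value. Those without control 4, mutant 5 or litter C share another. Those without control 5 and without litter D both leave litter D out of the difference. The fit without control 5 and mutant 5 rests on litters A and B.

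The Mcmbp level moved with that of other transcripts that hold long runs of T. In GENCODE M21, the transcript Mcmbp-201 (4237 bases, coding bases 306 to 2231) has a run of 30 T starting at base 3063, in its 3′ UTR, the longest of any member. The next are 20 T in the 3′ UTR of Mcm5-201, 12 in a transcript of Mcm9 and 5 to 8 in the other 7 members, Mcm4 among them at 8. Mcmbp-201 also holds the longest run of A of any member, 20 bases starting at base 4218 in its 3′ UTR. The other coding transcript, Mcmbp-202, has no run longer than 4, and the counts are sums over all exons of the gene. In the classes of T run that follow, the 10 members are left out, and transcript length was not matched between classes. Over the 171 other tested genes with a run of at least 26 T, the median log2 fold change was -0.49. Of them 44 (25.7%) were called, 43 lower, against 2.18% called and 1.48% called lower of all genes tested. Called shares were 8.65% for runs of 18 to 25 T, 1.82% for 11 to 17 and 1.45% for 10 or fewer. Of the 171 genes, 56 were at or below the value of Mcmbp. So were 58 of the 786 genes with runs of 18 to 25 T and 50 of the 2914 with 11 to 17. Among the 11410 genes with 10 or fewer, 308 were. Genes with runs of 18 to 25 T, the class of Mcm5, had a median of -0.17, those with 11 to 17, the class of Mcm9, -0.03, and those with 10 or fewer 0.03. Mcm5, at -0.05, lay nearer to 0 than the median of its class.

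A T-run index was formed in each library as the mean log2 CPM of those 171 genes. The index ran from 5.12 to 5.38 in controls 1 to 4, was 4.71 in control 5, and was 4.38 to 4.80 in the mutants apart from mutant 5, at 5.02. Ranked by Mcmbp and by the index, no library differed by more than 2 places, and mutant 2 was lowest and control 1 highest on both. With the index as a covariate beside genotype and litter, the Mcmbp difference was -0.01 (SE 0.09, adjusted p 0.987), and that of Mcm4 was 0.05 (adjusted p 0.808). The same fit moved other members away from 0: Mcm6 was 0.26 (SE 0.09, edgeR p 0.00996, adjusted p 0.34), Mcm2 0.20 (SE 0.07, edgeR p 0.0186, adjusted p 0.367), Mcm8 0.23 (adjusted p 0.531) and Mcm3 0.13 (adjusted p 0.48). Mcm5, Mcm7, Mcm9 and Mcm10 were at 0.01, -0.08, -0.17 and -0.01, and no member was called. Controls 1 to 4 had a higher index than any mutant, so the index and the genotype cannot be fully told apart in such a fit. This covariate was chosen after seeing the data.

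**Figure D4:**
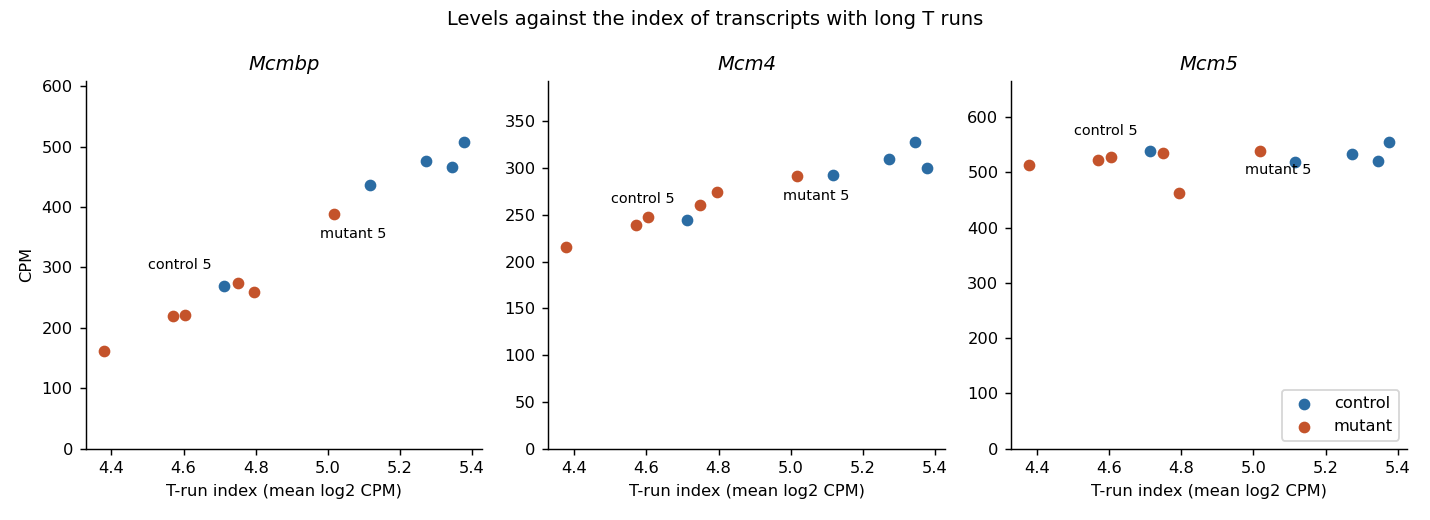
Level in CPM (vertical axes from 0) of Mcmbp, Mcm4 and Mcm5 against the T-run index (mean log2 CPM of 171 genes with runs of at least 26 T), blue for controls and orange for mutants. Mcmbp and Mcm4 are low where the index is low, control 5 sits with the mutants for both, and Mcm5 stays between 462 and 554 CPM.

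Levels can be compared between members only per length. Per kilobase of merged exon, Mcm5 was highest in controls at 156 ± 4.35 CPM per kilobase (SD, n = 5), followed by Mcm3 at 105 ± 4.12 and Mcm7 at 90.4 ± 4.35. Mcmbp at 84.5 ± 18.3 and Mcm4 at 82.3 ± 8.61 came next, then Mcm6 at 59.8 ± 4.06 and Mcm2 at 40.5 ± 1.89. Mcm10 at 12.2 ± 0.530, Mcm8 at 9.35 ± 0.485 and Mcm9 at 1.46 ± 0.254 CPM per kilobase closed the order. Mcm7 was above Mcmbp in 8 of 11 libraries, Mcmbp above Mcm4 in 4, and Mcm10 above Mcm8 in 10; each other neighbour kept its place in 11 of 11. In mutants, Mcmbp was 49.7 ± 14.9 CPM per kilobase (SD, n = 6), below the Mcm6 mean of 56.8 ± 7.49.

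The order of the subunits depended on the length used. With the longest coding transcript, Mcm2 stood at 83.5 ± 3.90 CPM per kilobase (SD, n = 5), since its merged exons hold 6956 bases and its longest coding transcript 3371. Mcm7 was then 135 ± 6.50 and Mcm3 130 ± 5.09 CPM per kilobase, in that order in only 6 of 11 libraries. The ratio of the highest to the lowest subunit was 3.85 ± 0.127 (SD, n = 5) in controls with merged exons and 2.46 ± 0.151 with the transcript length. Mcm5 was highest under both lengths in all 11 libraries. As shares of the 6 subunits by transcript length, Mcm5 made up 24.2% in controls and 24.2% in mutants, Mcm4 12.6% and 11.3%, and Mcm2 12.8% and 13.5%.

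**Figure D5:**
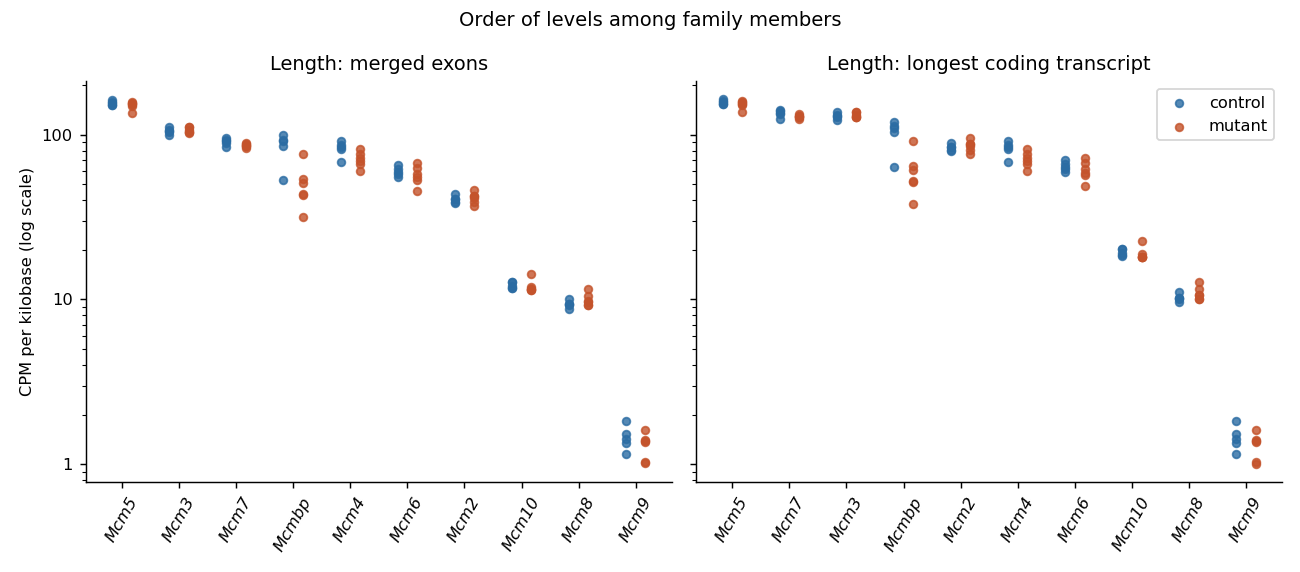
CPM per kilobase (log scale) of each member in each library, ordered by control mean, with the merged exon length at left and the longest coding transcript at right; blue points are controls and orange points mutants. Mcm5 is highest and Mcm9 lowest in both panels, and Mcmbp is the member whose groups stand farthest apart.

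Litter and its interaction with genotype were tested for each member. For litter, 0 of 10 members were called, against 0.0885% of all genes, where 13.5% of all genes had an unadjusted p under 0.05. Mcmbp was the only member under it, with an edgeR p of 0.0438 and an adjusted p of 0.358. For the interaction 0 of 10 were called (edgeR), as were 0% of all genes, and 0 members had an unadjusted p under 0.05, against 3.82%. DESeq2 and limma-voom also called 0 members in both tests.

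Genes whose level followed the mean of the 6 subunits most closely were Ncs1, a neuronal calcium sensor gene (r = 0.97), Dhx37, an RNA helicase gene (0.95), Pdia3, a disulfide isomerase gene of the endoplasmic reticulum (0.95), Ccar2 (0.94) and Rps6ka6, a ribosomal S6 kinase gene (0.94). These are Pearson's r of log2 CPM over the 11 libraries among 8542 genes of at least 10 CPM. After centring on litter and genotype, Ncs1 had an r of 0.99 and was the only 1 of these 5 genes still among the 5 highest. The libraries share preparation and genotype, and the r values are a description. Those after centring rest on fewer independent values than the 11 libraries.

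The other genes of the pathway numbered 58 by list, of which 57 were found and tested, and 2 were called, where 2.18% of all genes tested were. One is Gmnn, the gene deleted in the mutants, whose change is built into the design. Apart from Gmnn, Cdc7 was the only pathway gene called. Of 9 helicase loading genes, Gmnn alone was called, with a difference of -0.67 (SE 0.10, adjusted p 0.0291). Orc3, a subunit of the origin recognition complex, was -0.28 (SE 0.07, adjusted p 0.0555), and Cdc6 was -0.10 (adjusted p 0.341). The median of that list was 0.00. Cdt1, the loading factor bound by Geminin, was 61.8 ± 9.29 CPM (SD, n = 5) and 68.0 ± 5.92 CPM (SD, n = 6), a difference of 0.11 (adjusted p 0.38).

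Of 16 helicase activation genes, 1 was called: Cdc7, the kinase that phosphorylates the loaded Mcm ring, was 77.2 ± 12.7 CPM (SD, n = 5) across controls against 51.2 ± 11.5 CPM (SD, n = 6) across mutants. Its difference was -0.57 (SE 0.11, adjusted p 0.0406). Wdhd1 was -0.34 (adjusted p 0.0665) and Donson 0.42 (adjusted p 0.0861). The list had 8 positive and 8 negative members and a median of 0.01. None of 10 Mcm protein partners passed, with Asf1a at 0.27 (adjusted p 0.111), Ssrp1 at -0.17 (0.136) and Mms22l at 0.16 (0.349), and a median of 0.09. None of 22 DNA synthesis genes passed either, where 8 had an unadjusted p under 0.05, 5 lower and 3 higher, against 21.4% of all genes. Those of smallest p were Rrm1 at -0.26 (adjusted p 0.0644), Rrm2 at -0.20 (0.0782) and Rpa1 at -0.23 (0.0855). The same 2 genes were called without mutant 2, and Gmnn alone without control 1. Without control 5 there were 7: Gmnn, Cdc7, Orc3, Wdhd1, Rrm1 and Rpa1, all lower, and Gins2, a subunit of the GINS complex that joins the helicase, which was higher by 0.38 (adjusted p 0.0289). Calls rose among all genes in that fit, to 846 from 345 in the main fit, so the 7 are no result about the pathway alone. Without each of the other 8 libraries, and without the litter block, the count of pathway genes was 0. In the fit that included the T-run index, Gmnn alone was called, at -1.08 (adjusted p 0.000885).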

How the data were processed

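Deposited were raw read counts for each gene name, made by the authors with featureCounts 1.4.6-p4 on mm10, per the file headers. STAR 2.5.4b is named in the submitters' processing notes. The header sets no strand option, so reads were counted without strand. The command lists 12 alignment files and the table has 11 sample columns, all used.

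The tools were R 4.3.3, limma 3.58.1 and edgeR 4.0.16. filterByExpr kept 15821 genes (99.9% of counts), and TMM factors scaled the 14721181 to 19733288 counts per library. The two-sided quasi-likelihood F test had terms for genotype and, as a block, litter; p-values were adjusted by Benjamini-Hochberg across every gene in the fit, with calls under 0.05. CPM are relative to the scaled totals, and log2 CPM used a prior count of 2. Interaction and litter were tested on their coefficients together. The script was tested on simulated data.

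Replicate numbers follow accession order, and the pairing comes from the litters in the titles and the design text. Deviations from the group means correlated at -0.16 to 0.37 (median 0.13) for the 8 same-litter pairs of a control and a mutant, and at -0.33 to 0.17 (median -0.02) over the 22 other pairs. Between 2 libraries of the same group, chi-square divided by its degrees of freedom was at least 7.39 in all 25 pairs, so each library was counted as a separate sample.

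The members, the lists and the tests were chosen with earlier results of these data known. Named are all 10 members, Gmnn, the pathway genes past the threshold (filled to 3 per list by smallest p, and Cdt1, chosen after its values were seen), and the 5 genes most like the mean of Mcm2 to Mcm7; those highest after centring are not all reported here. Alternatives were other scalings, filters and tools (DESeq2 1.42.0, limma-voom), no block, and libraries or litters left out. The T-run covariate, the fit without control 5 and mutant 5, and the transcript length were added after seeing the data.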

Additional observations from a re-analysis of the deposited data

Results flagged for a closer look

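Of 56 tests for a library far from the rest of its group, 4 gave a flag, against 1.4 expected by chance. The measures tested overlap, so the tests are not independent. Mcmbp in control 5 was 8.08 log2 CPM, below the other 4 controls at 8.77 to 8.99; the results with and without that library are given in the report. Mcm10 in mutant 5 was 6.79 log2 CPM, above the other 5 mutants at 6.46 to 6.52. Mcm5 in mutant 6 was 8.85 log2 CPM, or 462 CPM, below the other 5 mutants at 513 to 539 CPM. Haemoglobin transcripts took 5.44% of the counts of mutant 2, above 1.69% to 2.76% in the other 5 mutants.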

How the results depend on the processing

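The Mcmbp difference was below 0 in all 25 alternatives and kept its call in 10; it lost it in 15. These alternatives are not all separate. Leaving out control 3, mutant 6 or litter B gave the same Mcmbp value. So did leaving out control 4, mutant 5 or litter C. Leaving out control 5 takes litter D out of the difference, as leaving out that litter does (-0.84 and -0.85). The litter block changed its call: without the block its adjusted p was 0.0625, 0 members and 0 pathway genes were called, and 13 genes in all. Members called were also 0 without litter A, B, C or D (9, 3, 1 and 163 genes called in all) and 0 with the T-run index (5 genes, 1 of them, Gmnn, in the pathway lists). Leaving out each library gave 0 to 1 members, 0 to 7 pathway genes and 1 to 846 genes, against 1, 2 and 345 in the main analysis; 846 came without control 5 and 1 without control 4 or mutant 5. Without control 5 and mutant 5, a fit whose genotype difference comes from litters A and B alone, there were 840 genes and 7 pathway genes. Counts of pathway genes include Gmnn, the targeted gene, wherever it was called. No filter gave 1566 genes, requiring 1 CPM in 5 or more libraries 550 and DESeq2 1194, each with 1 member. With no filter, Mcmbp was also called for litter (1 member, adjusted edgeR p 2.97e-07) and for the interaction (1 member, adjusted edgeR p 0.00442). In the no-filter genotype fit the SE of Mcmbp was 0.079, against 0.157 in the main fit. Mcm4 and Mcm6 also had an SE of 0.079 there. The small p-values of Mcmbp with no filter go with that smaller SE, and this fit is 1 of the 10 that keep its genotype call. With each library left out, 0 to 0 members were called for litter or the interaction, the interaction in the 6 fits that keep both genotypes in each litter. The causes were not tested. Upper-quartile scaling gave 360 calls, 43.1% of them higher, against 32.2%. The ratio of the highest to the lowest subunit level went from 3.85 to 2.46 with transcript lengths, and the likeness of Ncs1 to the subunit mean from 0.97 to 0.99 after centring. The other 9 members were not called in any of their 25 alternatives; signs changed in some for Mcm2, Mcm3, Mcm4, Mcm5, Mcm6 and Mcm10, the widest being Mcm6, from -0.21 to 0.26. Coding lengths from a protein table were not run as an alternative. Mcm9, with 72 to 164 reads, is the member most limited by depth.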
